A study of Rattus norvegicus with 16 samples.

Results

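Adipose and brown fat transcripts were followed in liver RNA of weanling rats through 9 genes, namely Ucp1, Cidea, Cox8b, Fabp3, Adipoq, Fabp4, Cfd, Lep and Plin1. The genes were picked because some of them were high on single arrays in Cy5, the channel of the liver RNA, so those levels are described here without a test. A probe was found through its RefSeq accession for 8 of the 9 genes, out of 15168 genes with a named probe, and dim probes were kept. Plin1, which encodes the coat protein perilipin of the adipocyte lipid droplet, had no probe matched by its accession. Cidea had 2 probes, and the brighter one stands for the gene.

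Brown fat is a thermogenic tissue that is prominent in young rodents, and its mitochondria carry uncoupling protein 1, the product of Ucp1, which lets the proton gradient run down as heat. White and brown adipocytes share proteins that store, bind and release fatty acids, and they secrete adipokines such as adiponectin, adipsin and leptin. Hepatocytes express few of these genes strongly, although the liver makes and handles lipid through many enzymes that it has in common with fat.

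The arrays measured livers of male Sprague-Dawley pups aged 21 days, with 4 arrays in each of 4 groups and RNA of 2 pups pooled on each array. In the groups MM and M the dams received 1 mg per kg per day of a chemical mixture (M) of organochlorine pesticides, polychlorinated biphenyls and methyl mercury in corn oil during gestation and lactation. MM pups were cross-fostered to other dams given the mixture, whereas M pups stayed with their own dams. In the groups CC and C the dams received corn oil only. CC pups were cross-fostered to other control dams and C pups stayed with their own dams. All groups shared the corn oil, the sex, the strain and the age. Litters are not named in the labels, so p-values measure the spread between pools, some of which may share a litter.

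Every array carried in Cy3 a universal reference RNA made from 14 rat cell lines, and dyes were never swapped. The MM and M arrays lay on slide 2 and the CC and C arrays on slide 1, so the mixture and the slide cannot be told apart. Each group had 2 arrays in row 1 and 2 in row 2 of its slide. Hepatocyte markers such as Alb and Ttr were well above background on all 16 arrays, and their summed net Cy5 intensity was 771000 to 1050000 in MM, 907000 to 1090000 in M, 1050000 to 1200000 in CC and 939000 to 1190000 in C. These sums are not normalised. In normalised log2 Cy5 minus the slide median, the median of these markers was -0.23 on array CC 1 and -0.07 to 0.11 on the others. On an array, 43.5% to 50.9% of spots were well above background in Cy5. Precision is limited by the number of arrays.

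The stretches just before the start are shown for Ucp1 and Cidea, which were high on arrays CC 1 and C 10, and for Cox8b, which was high on CC 1, CC 2 and C 10. The windows of Adipoq and Fabp3, which were also high on single arrays, are not shown. The stretches are 150 bases each, taken from RefSeq (GRCr8) and written in the direction of the gene. Capitals mark the TATA box letters TATAAA, the E box letters CAGCTG, and the letters TGACG shared by cyclic AMP response elements. All were searched on both strands, as were the nuclear receptor letters AGGTCA. No 2 of the marked motifs overlap.
Ucp1 (chr19:41721422-41721571, minus strand): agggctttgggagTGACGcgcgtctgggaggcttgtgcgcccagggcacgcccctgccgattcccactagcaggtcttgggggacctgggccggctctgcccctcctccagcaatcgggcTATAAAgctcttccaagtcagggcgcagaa
Cidea (chr18:63164667-63164816, plus strand): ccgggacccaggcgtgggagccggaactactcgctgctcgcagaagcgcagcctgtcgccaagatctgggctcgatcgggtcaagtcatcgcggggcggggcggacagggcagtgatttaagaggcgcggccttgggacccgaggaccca
Cox8b (chr1:205408274-205408423, minus strand): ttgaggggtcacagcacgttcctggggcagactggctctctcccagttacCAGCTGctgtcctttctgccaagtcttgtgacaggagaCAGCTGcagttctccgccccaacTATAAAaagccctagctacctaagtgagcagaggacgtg

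TATAAA began 30 bases before the start of Ucp1 and 39 bases before that of Cox8b, and 8.0% of 33469 rat promoter windows of this length hold it. A promoter entry was at hand for 8 of the 9 listed genes, Plin1 included and Fabp4 not, and TATAAA was in 2 of these 8 windows. CAGCTG occurred at 100 and 62 bases before the start of Cox8b and was in 3 of the 8 windows, those of Cox8b, Plin1 and Adipoq, against 7.6% of all windows. TGACG began 137 bases before the start of Ucp1 and was in 3 of the 8, those of Ucp1, Plin1 and Cfd, against 13.4% of all windows. Cidea held none of the 4 motifs in this window, and AGGTCA was in none of the 8, against 8.8% of all windows. These matches describe letters only.

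Ucp1 was well above background on 2 of the 16 arrays, CC 1 and C 10, which come from different groups but both carry control pups. Its net Cy5 intensity, the spot's median signal less its local background, was 271 units on CC 1 and 215 units on C 10. On the other 14 arrays it lay between -1.06 and 6.20 units. It was 4.65, 2.35, 2.15 and 1.95 in MM, and -1.06, 4.85, 2.30 and 6.20 in M. Of the remaining control arrays, CC 2, CC 3 and CC 4 had 3.22, 5.00 and 3.44, and C 9, C 11 and C 12 had 1.21, 3.5 and 4.0. The range of the MM and M arrays therefore took in that of the 6 dim control arrays, with M arrays lowest and highest. The 2 bright arrays stood apart from all of these arrays.

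The Ucp1 probe was printed 10 times on each array, which allowed a check within the array. All 10 spots were well above background on CC 1, with net intensities from 162 to 364 units and a mean of 271 ± 69.3 (SD over spots). On C 10 all 10 spots were again well above background, from 178 to 246 units with a mean of 215 ± 23.1. No spot of the probe reached that mark on any other array. Spots of 1 array share its RNA and are not replicates of a condition. Against the 6 dim arrays of the same slide, Ucp1 was at least 5.62-fold higher on CC 1 and at least 4.90-fold higher on C 10, taking for each dim array the higher of its own value and the lowest signal that was well above background. Ucp1 in the reference RNA was not well above background on any array.

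**Figure D1:**
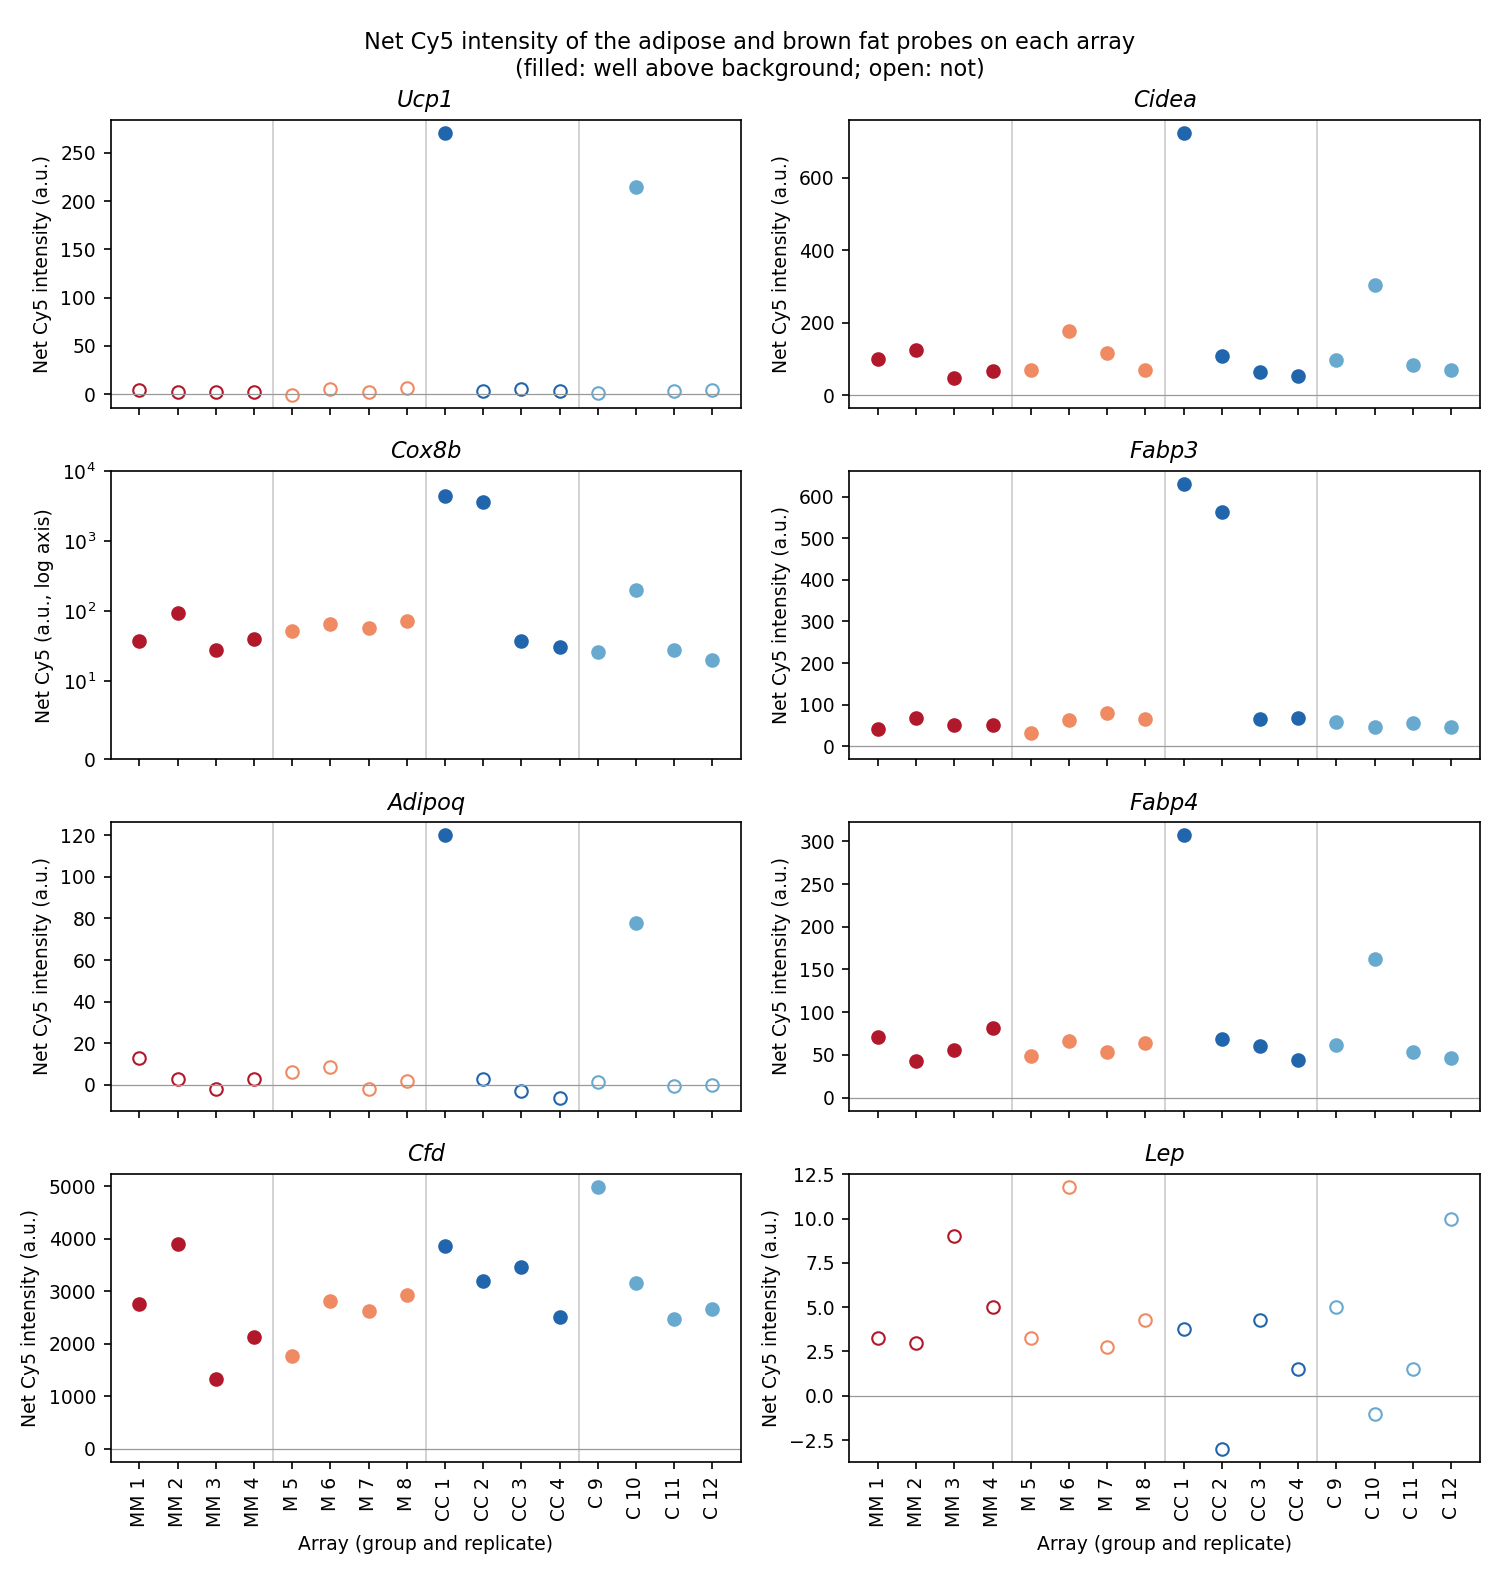
Net Cy5 intensity in arbitrary units of the probe that stands for each of the 8 genes, for each array, in the groups MM, M, CC and C from left to right (Cox8b on a log axis that turns linear below 10). Filled points were well above background and open points were not. Ucp1 and Adipoq are filled on CC 1 and C 10 only, Cox8b and Fabp3 are far higher on CC 1 and CC 2, and Cfd and Lep have no array that stands out.

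Cidea, a lipid droplet protein of brown fat, was measurable on every array and highest on the same pair. Its net Cy5 intensity was 724 units on CC 1 and 303 units on C 10, against 52.5 to 109 units on the other 6 arrays of the slide. The MM arrays had 98.2, 124, 48.2 and 66.5 units and the M arrays 68.0, 178, 115 and 69.2. Cidea was 5.27-fold higher on CC 1 and 2.72-fold higher on C 10 than the mean of those 6 arrays on the log2 scale. This fold, like all others given for single arrays, comes from normalised Cy5 with an offset of 50 units added. Such folds are smaller than the net units would give, most of all where the compared arrays are dim. The dimmer Cidea probe gave 191 units on CC 1 and 71.5 on C 10, against 11 to 39 on the others of the slide. Both probes were therefore highest on CC 1 and next highest on C 10.

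Adipoq encodes adiponectin, the adipokine that is secreted mainly by adipocytes. Its probe was well above background on CC 1, at 120 units, and on C 10, at 77.8 units. The other 6 arrays of the slide lay between -6.25 and 2.75 units. It was 13, 2.75, -2.0 and 2.5 units in MM and 6.0, 8.5, -2.0 and 2.0 units in M, none of them well above background. Adipoq was at least 3.24-fold higher on CC 1 and at least 2.50-fold higher on C 10 than on those 6 arrays.

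Fabp4, the fatty acid binding protein of adipocytes and macrophages, was detected on all 16 arrays. It reached 307 units on CC 1 and 162 units on C 10. The other 6 arrays of the slide had 43.5 to 68.2 units, and the MM and M arrays 42.8 to 81.5 units. It was 2.75-fold higher on CC 1 than on the other 7 arrays of its slide.

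Fabp3 and Cox8b had another order of arrays. Fabp3, the fatty acid binding protein of heart and skeletal muscle that brown fat also expresses, had 630 units on CC 1 and 564 units on CC 2. C 10, at 46.5 units, was the lowest of the other 6 arrays of the slide, which had 46.5 to 67.5. The MM arrays had 42.5, 68.8, 51.8 and 50.5 units and the M arrays 32.2, 63.8, 79.0 and 66.8. With the offset, Fabp3 was 4.87-fold higher on CC 1 and 4.63-fold higher on CC 2 than on the other 6 arrays of the slide, less than the net units give.

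Cox8b encodes a subunit of cytochrome c oxidase found in rodent muscle, heart and brown fat. It was the only member high on all 3 arrays. Net Cy5 was 4370 units on CC 1, 3550 units on CC 2 and 203 units on C 10. The other 5 arrays of the slide had 20.5 to 38.0 units, MM had 38.0, 95.5, 28.0 and 40.0 units and M had 52.2, 65.0, 57.5 and 73.0. With the offset, Cox8b was 55.5-fold, 48.9-fold and 3.58-fold higher on CC 1, CC 2 and C 10 than on the other 5 arrays of the slide. The net units give larger folds.

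Cfd and Lep did not share this behaviour. Cfd, which encodes the complement protease adipsin, was bright everywhere, with net Cy5 of 2760, 3890, 1340 and 2130 units in MM, 1770, 2810, 2620 and 2920 in M, 3860, 3190, 3470 and 2510 in CC, and 4990, 3150, 2480 and 2670 in C. Its highest array was C 9, at 0.62 log2 units above the slide median. CC 1 and C 10 deviated from that median by only 0.10 and 0.04 log2 units. Lep, the gene of leptin, was not well above background in Cy5 on any array, with -3.00 to 11.8 net units.

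A gene was called high on an array where its normalised log2 Cy5 was at least 1 unit above the median of the 8 arrays of the slide. By this mark 6 of the 8 genes were high on CC 1, against 0.517% of 30363 probes. On C 10 there were 4 of the 8, against 0.0296% of probes, and on CC 2 there were 2, against 0.333%. None of the 8 was high on any of the other 13 arrays. The members were chosen on these very levels, so nothing is read from the counts. The member just inside the mark was Cidea on C 10, at 1.29, and the one just outside was Fabp4 on C 10, at 0.94. The dimmer Cidea probe was at 1.57 on CC 1 but at 0.61 on C 10, outside the mark.

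The deviations differed in composition between the arrays. On CC 1 they were 2.80 for Ucp1, 2.24 for Cidea, 1.79 for Adipoq, 1.54 for Fabp4, 2.16 for Fabp3 and 5.67 for Cox8b, in log2 units. On C 10 they were 2.61 for Ucp1, 1.41 for Adipoq, 1.29 for Cidea and 1.71 for Cox8b, while Fabp3 was at -0.29. On CC 2 Cox8b was at 5.48 and Fabp3 at 2.09, whereas Ucp1, Cidea, Adipoq and Fabp4 lay between 0 and 0.08. CC 1 thus held both sets, and CC 2 the pair of Cox8b and Fabp3. C 10 held Ucp1, Cidea, Adipoq and Cox8b, with Cox8b lower there than on CC 1 and CC 2. In bulk liver RNA, a larger number of expressing cells and more RNA per cell cannot be told apart.

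**Figure D2:**
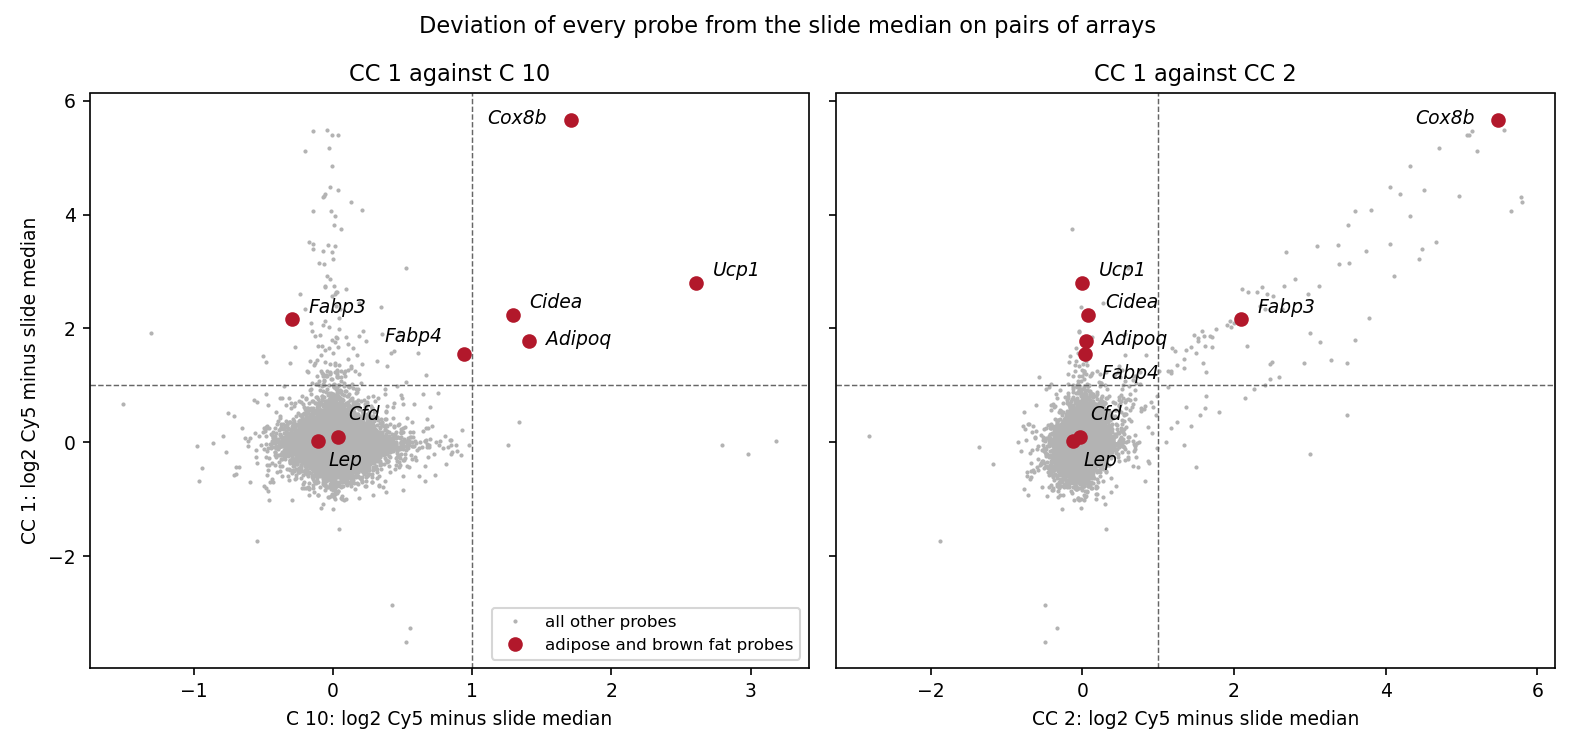
Deviation of each of 30363 probes from the slide median, in log2 Cy5, on CC 1 (vertical axis) against C 10 (left) and CC 2 (right). Red points are the adipose and brown fat genes, grey points all other probes, and dashed lines the mark of 1 log2 unit. Ucp1, Cidea, Adipoq and Cox8b lie beyond both lines on the left, and Cox8b and Fabp3 do so on the right.

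Few other probes were high on C 10. The 9 high probes there were those of Acnat2 (3.18), Tpt1 (2.98), Ucp1, Cox8b, Adipoq, Cidea and 3 probes without a symbol. The probes high on both C 10 and CC 1 were the 4 member probes, which is 44.4% of the 9 on C 10 and 2.55% of the 157 on CC 1. The members were chosen on these very levels, so nothing is read from this overlap. CC 2 shared 85 high probes with CC 1, 84.2% of its own 101 and 54.1% of those on CC 1. C 10 and CC 2 shared 2 probes, those of Cox8b and of Tpt1, which was at 3.01 on CC 2.

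Across the 16 arrays, the deviations of Ucp1 correlated at r = 0.971 with Adipoq, 0.925 with Fabp4 and 0.911 with Cidea. Without CC 1 these values were 0.942, 0.844 and 0.811, and they then rest on C 10. Fabp3 and Cox8b correlated at 0.924, and at 0.860 without CC 1. Ucp1 and Fabp3 gave 0.381 with CC 1 and -0.197 without it. These correlations describe a few bright arrays that share slide 1, and carry no test.

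Likeness to each member over the 16 arrays was ranked among 840 probes with a span of at least 1 log2 unit. The members Adipoq, Fabp4 and Cidea held the first 3 ranks for Ucp1. They were picked on these same levels, so nothing is read from their ranks. Members are left out of the genes that follow. The nearest other genes for Ucp1 were Gpr15lg (r = 0.823), Sfnl1 (0.804) and the intermediate filament gene Vim (0.802). Vim was also among the nearest 3 other genes for Cidea (0.854), Adipoq (0.848) and Fabp4 (0.864), and Cav1, which encodes the caveolar protein caveolin 1, was at 0.886 with Fabp4. Gpr15lg was at 0.880 with Adipoq and 0.889 with Fabp4, and Cidea had Sfnl1 at 0.865 and Gtf2h3 at 0.860 beside Vim. For Adipoq, Sfnl1 was at 0.846.

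The other genes most like Fabp3 were Pvalb, the calcium buffer of fast muscle, at 0.987, and Jsrp1 and Pgam2, both at 0.984. Those most like Cox8b were Sypl2 (0.979), Klhl31 (0.977) and Mb, the gene of myoglobin (0.970). Cfd had Fabp7 (0.853), Gucy1b2 (0.813) and Gzma (0.811), and the dim Lep had Wfdc21 (0.661), Cyp2j3 (0.588) and Depp1 (0.575).

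Lists of marker genes for fat and for other tissues were read on each array in the same way. Of 14 further brown fat genes with a probe, Cpt1b, the muscle and brown fat form of carnitine palmitoyltransferase, was high, at 1.61 on CC 1 and 1.23 on CC 2, with 0.44 on C 10. None of the 14 was high on C 10. Dio2, which activates thyroid hormone in brown fat, was not well above background on any array. Ebf2, a regulator of brown fat identity, Zic1 and Ucp3 were likewise not well above background on any array. Ppargc1a, a coactivator of thermogenic genes, deviated by 0.04 on CC 1 and 0.16 on C 10, and Elovl3, a fatty acid elongase, by 0.33 and 0.26.

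Of 12 further adipocyte genes none was high on any array. Slc2a4, the insulin-responsive glucose transporter of fat and muscle, was at 0.78 on CC 1 and 0.05 on C 10. Retn, which encodes resistin, was at 0.72 and 0.30. Mrap deviated by -0.08 and 0.53. The hormone-sensitive lipase gene Lipe was not well above background on any array, and Pparg was at 0.08 and 0.07. No gene of 18 in the list of fat metabolism shared with the liver was high on any array, and Fasn was at 0.67 and 0.50 on CC 1 and C 10.

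Skeletal muscle genes moved with Fabp3 and Cox8b. On CC 1 and CC 2, 23 of 25 genes of the muscle list were high, with a median deviation of 3.34 and 3.38 log2 units. Ckm, the muscle creatine kinase, was at 5.46 and 5.14 and Myh8, the perinatal myosin heavy chain, at 5.48 and 5.56. The summed net Cy5 of the list was 35400 and 31700 units on these arrays. On C 10 no gene of the list was high, its sum was 719 units and Ckm was at -0.14. The sum was 480 to 718 units in MM, 630 to 735 in M and 620 to 754 in C. Cox8b was at 1.71 on C 10, where the muscle list was at a median of -0.03.

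Exocrine pancreas genes were also high on CC 1 (9 of 16) and CC 2 (14 of 16), and in addition on MM 1 (9) and M 6 (6), arrays on which no member was high. Ctrb1, a chymotrypsinogen, was at 4.22, 5.80, 3.83 and 2.83 log2 units on these arrays. Prss1, a trypsinogen, was at 4.31, 5.78, 3.33 and 1.92, and on C 10 it was at -0.07. Of the heart list, Myh6 was at 4.32 on CC 1 and 4.96 on CC 2 and Myl4 at 1.24 and 1.63, while Nppa and Myl7 were not well above background on any array. In the connective tissue list, Col1a2 was at 1.27 and Dcn at 0.99 on CC 1, and at 0.11 and 0.46 on C 10. A further set of genes was high on CC 1 alone and was chosen after its values were seen. Glycam1, a mucin of lymph node vessels, was at 3.74 on CC 1, against -0.13 on CC 2 and 0.06 on C 10. The lymphoid chemokine genes Ccl21 and Ccl19 were at 3.05 and 2.44 on CC 1, 0.61 and 0.28 on CC 2, and 0.52 and 0.19 on C 10. The T cell genes Cd3g, Cd247 and Cd3d were at 1.41, 1.36 and 1.21 on CC 1, and lay between -0.19 and 0.06 on CC 2 and C 10. Cd3e, the T cell gene of the leukocyte list, was at 0.21 on CC 1 and not well above background on any array. In the leukocyte list 0 of 6 genes were high on CC 1, with a median of 0.35, and the summed net Cy5 was 2920 units on CC 1, 1390 on CC 2 and 1700 on C 10, beside 1070 to 3890 over all 16 arrays. The part of these other tissues' transcripts in the members' levels was not tested.

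**Figure D3:**
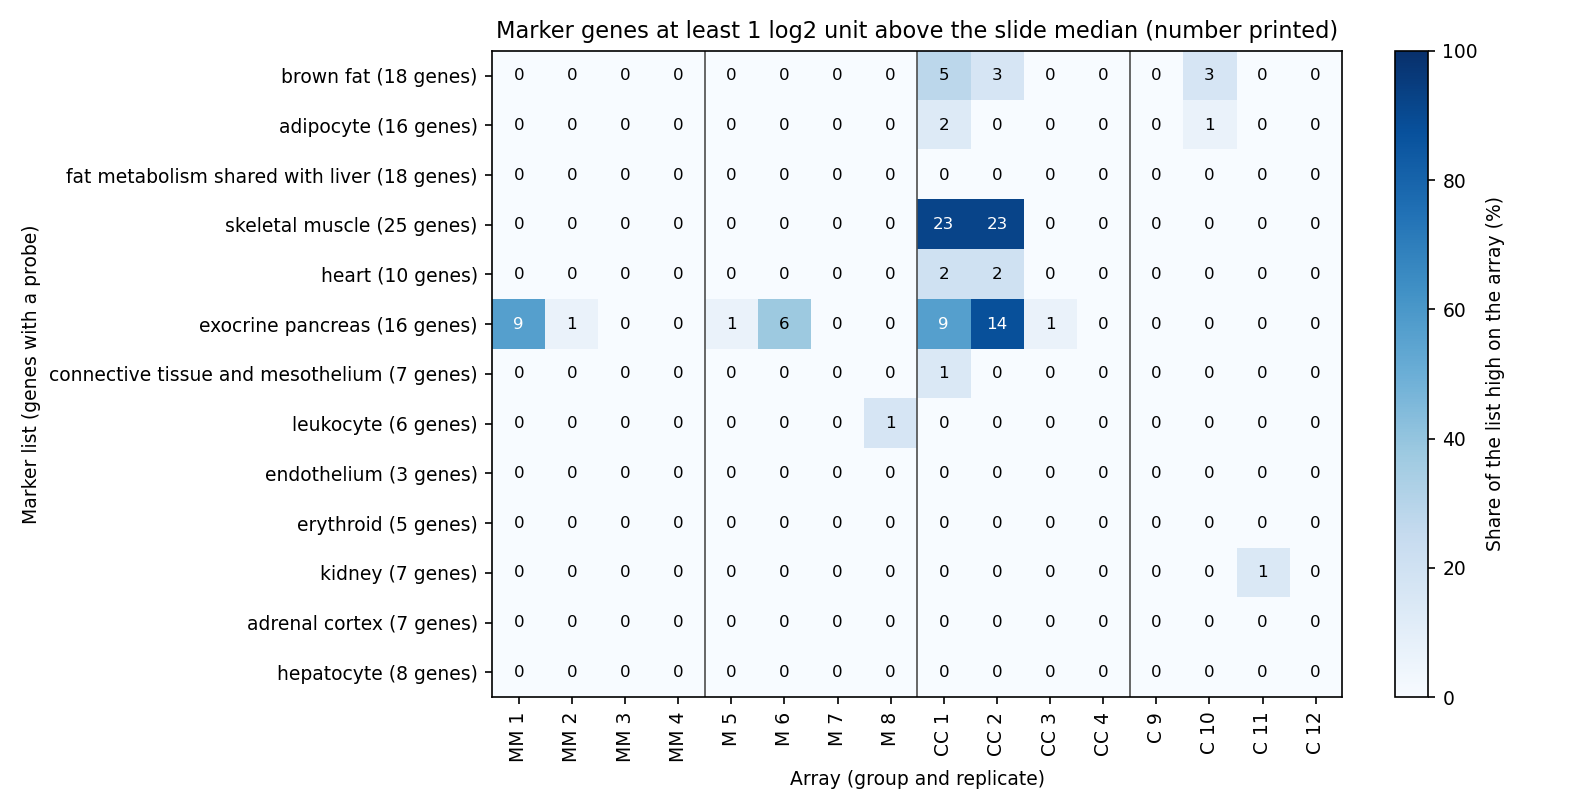
Number of genes of each marker list (rows, with the genes that have a probe) at least 1 log2 unit above the slide median in Cy5 on each array (columns, in the groups MM, M, CC and C from left to right). Shading gives the share of the list in percent. The brown fat list has 5 genes high on CC 1, 3 on CC 2 and 3 on C 10, mostly the members, since without them 1, 1 and 0 of 14 are high; muscle genes are high on CC 1 and CC 2 only, and pancreas genes mainly on CC 1, CC 2, MM 1 and M 6.

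Between groups, the members were compared on the log2 ratio of Cy5 over Cy3 with limma, adjusted by the Benjamini-Hochberg method over all 30367 probes. The bright arrays lie in CC and C and the members were picked for them, so these differences are read with and without those arrays, and a p-value from a fit that holds them is not independent of that choice. In MM against CC, 1 of the 8 genes was called at an adjusted p below 0.05, and 8.15% of all probes were. In M against C none of the 8 was called, against 8.46% of probes. The medians over the 8 genes were -0.53 and -0.34 log2 units, beside -0.01 over all probes in both. Of the calls over all probes 46.1% and 44.0% were higher with the mixture. With Cy5 alone those shares were 71.6% and 61.6%, and with the authors' deposited log2 ratios 58.6% and 52.9%.

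Fabp3 was the called gene. Its mean log2 ratio was -3.20 ± 0.19 in MM and -1.95 ± 1.20 in CC (SD, n = 4 arrays each), a difference of -1.25 ± 0.37 (SE) with a limma adjusted p = 0.0451. In net Cy5 the groups overlapped, since MM 2 had 68.8 units and CC 3 and CC 4 had 66.2 and 67.5. The call was lost without CC 1 (-0.88, limma adjusted p = 0.132) or without CC 2 (-0.93, 0.152). It was also lost without any 1 of the MM arrays, with differences of -1.21 to -1.35 and limma adjusted p-values of 0.055 to 0.105. Without CC 1, CC 2 and C 10 the difference was -0.22 with an adjusted p = 0.463. Within array row 1, which holds these 3 arrays, it was -2.37, and within array row 2 it was -0.14 with an adjusted p = 0.708. The Cy3 signal of the Fabp3 probe was itself 0.14 log2 units higher in MM than in CC.

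Cox8b differed by -2.85 ± 1.1 (SE) in MM against CC, with mean log2 ratios of 0.63 ± 0.43 and 3.48 ± 3.43 (SD), and was not called (limma adjusted p = 0.127). With the array row as a block the adjusted p was 0.0491 by limma. Within array row 1 alone, where the CC arrays are CC 1 and CC 2, the difference was -5.58, which describes the arrays the gene was picked for. Within array row 2 alone it was -0.11 (limma adjusted p = 0.706). Without the 3 arrays the difference was 0.13 (0.833). In M against C, Cox8b differed by 0, and by 0.61 within array row 2 alone (limma adjusted p = 0.0342). The Cy3 signal of the Cox8b probe was 0.36 log2 units higher in MM than in CC (limma adjusted p = 0.00266). It was 0.20 higher in M than in C (limma adjusted p = 0.0708).

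Ucp1 differed by -0.94 ± 0.68 in MM against CC and by -0.85 ± 0.68 in M against C, and none of its MM and M arrays was well above background. The limma adjusted p-values were 0.512 and 0.569. With the scanner software's ratio Ucp1 stood at -2.08 and -1.99 and Adipoq at -0.77 and -1.29, and neither was called. Cidea differed by -0.52 ± 0.43 and -0.32 ± 0.43, Adipoq by -0.29 ± 0.40 and -0.37 ± 0.40, and Fabp4 by -0.54 ± 0.34 and -0.59 ± 0.34, none of them called. Without the 3 arrays Ucp1 stood at -0.10 and -0.07, and leaving out CC 1 alone or C 10 alone gave -0.09 in MM against CC and -0.07 in M against C. Fabp4 stood at -0.03 and -0.31 without the 3 arrays, and at -0.23 and -0.21 with Cy5 alone. The Cy3 signal of the Fabp4 probe was 0.31 log2 units higher in MM than in CC and 0.38 higher in M than in C (limma adjusted p = 1.74e-05 and 1.76e-06). Without the 3 arrays Cidea stood at 0.21 and 0.03 and Adipoq at 0.29 and 0.05, so the sign of each turned. Within array row 2 alone, which holds none of the 3, Cidea was -0.04 and -0.12 and Adipoq 0.21 and -0.09.

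Cfd, which had no bright array, differed by -0.29 ± 0.19 in MM against CC and by -0.39 ± 0.19 in M against C on the log2 scale (SE, limma adjusted p = 0.436 and 0.249). The 95% interval was -0.68 to 0.11 for MM against CC and -0.79 to 0 for M against C. The Lep probe differed by 0.05 and 0, with no array well above background.

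In the comparisons within a slide, no member was called over all 16 arrays, and 0% of probes were called in CC against C, in MM against M and in the interaction of cross-fostering and mixture. Limma gave 1161, 1005 and 1133 probes at an unadjusted p below 0.05 in these comparisons. Robust moderation and Cy5 alone also called 0 probes in each, and the scanner software's ratio called 0, 1 and 1. Fabp3 was 1.22 ± 0.37 higher in CC than in C and Cox8b 2.64 ± 1.1 higher on the log2 scale (SE, limma adjusted p = 1 for both). Within array row 1 alone they were 2.37 and 5.07. The only CC arrays of that row are CC 1 and CC 2, for which these genes were picked, so these values are a description. Within array row 2 alone they were 0.08 and 0.21, and without the 3 arrays 0.14 and 0.22, with limma adjusted p = 1 for each. Both values share the CC arrays with the MM comparison. Ucp1 differed by 0.08 ± 0.68 in CC against C, where each group holds 1 bright array.

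**Figure D4:**
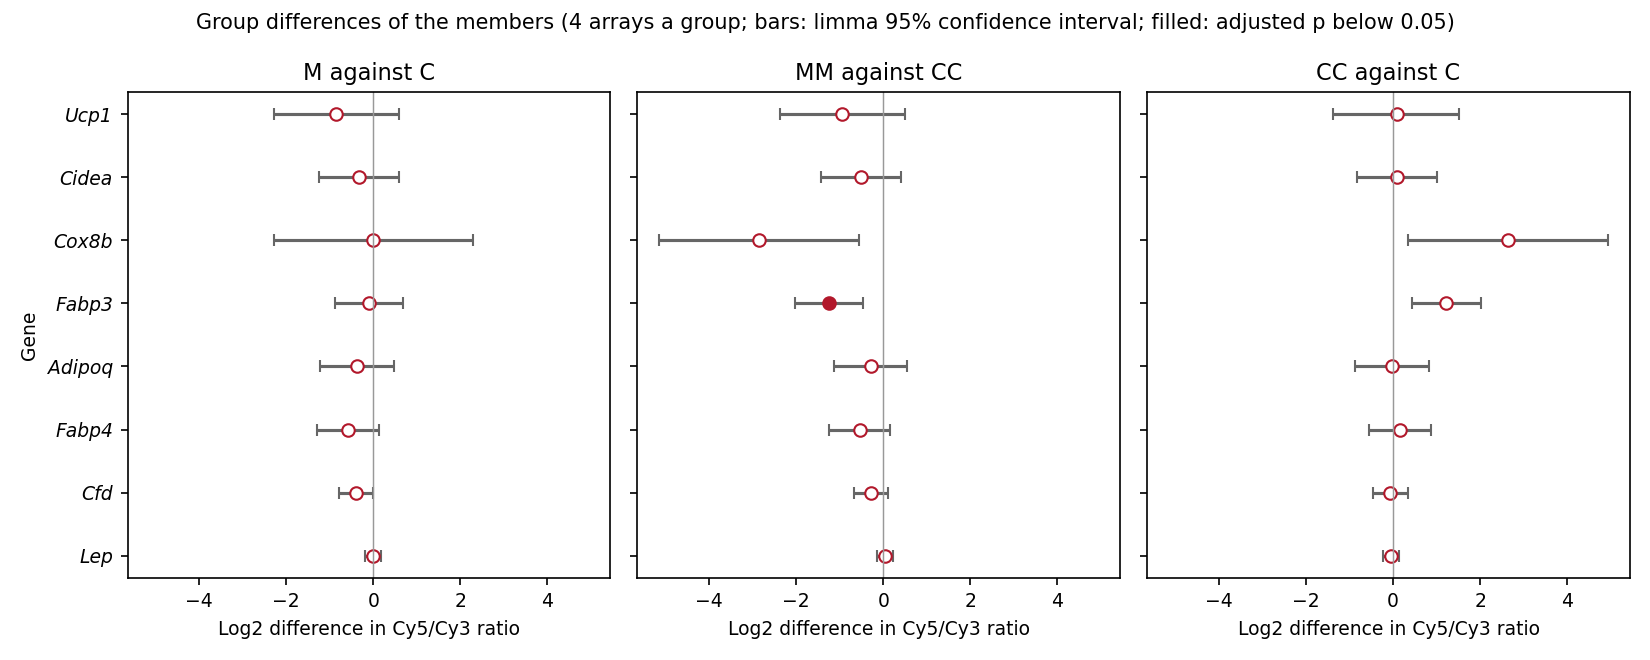
Log2 difference in the Cy5 over Cy3 ratio of the 8 genes in M against C, MM against CC and CC against C, with 4 arrays in each group. Bars are limma 95% confidence intervals, and the filled point (Fabp3 in MM against CC, -1.25) has an adjusted p below 0.05. Ucp1, Cidea, Adipoq and Fabp4 have intervals that include 0 in all 3 panels.

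Of the other listed brown fat genes, 0 of 14 were called in either mixture comparison, with median differences of -0.06 in MM against CC and -0.04 in M against C. Of the other adipocyte genes, 1 of 12 was called in MM against CC and 0 of 12 in M against C. That gene was Nnat, the neuronatin gene, at -0.54 ± 0.13 (limma adjusted p = 0.0160). With Cy5 alone its difference was 0 (adjusted p = 0.996). Of 18 genes of fat metabolism shared with the liver none was called in either comparison. In the muscle list 2 of 25 genes, Tnnc2 at -2.96 and Tnnt1 at -2.13, were called in MM against CC (limma adjusted p = 0.0389 and 0.0205), and 0 in M against C, beside the 8.15% of all probes called in MM against CC. With Cy5 alone neither was called (-2.75, limma adjusted p = 0.191, and -2.23, 0.0776). These 2 genes were high on CC 1 and CC 2, as Fabp3 was.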

How the data were processed

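Agilent Feature Extraction (version 11.0.1.1, per the file headers) read the slides. The deposited intensity values are median spot and local background signals in Cy5 and Cy3. The headers name probe annotation of build rn4, and no rn4 coordinates were used. The scanner files also hold a log10 ratio, per the file headers made by the scanner software. The series table deposited by the authors holds log2 ratios of Cy5 over Cy3, centred at medians from -0.0487 to -0.0371. Their values correlated with the ratios computed here at 0.996 to 0.997 per array with a slope of 0.997 to 1.01, so scale and direction are those used here, but how they were normalised is not given in the sources used here.

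Mean signals were planned, but the files hold medians, which were used. Background was corrected by normexp with an offset of 50, outlier spots were left out, and ratios were normalised by loess with control spots at weight 0. Cy5 alone was taken after loess and Aquantile normalisation, and its deviation from the median of the 8 arrays of the slide was read. Replicate spots of a probe were averaged. Symbols came from a RefSeq table of GRCr8, for 18005 of 30367 probes. The limma model (limma 3.58.1, R 4.3.3) held 1 mean for each group over all 16 arrays, with 12 residual and 4.97 prior degrees of freedom and two-sided tests, and files were read with jsonlite 2.0.0 and the data.table package, version 1.17.8. A probe was called at an adjusted p below 0.05. The fit was tested on simulated data. Figures were drawn with matplotlib 3.10.9 in Python 3.11.15. Median Cy5 was 84.0 to 96.0 units over a background of 67.0 to 73.0, and no spot was saturated.

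The rule for naming genes took all members, the 3 genes most correlated with each, and up to 4 genes of each marker list with the largest deviation of an array. Some further list genes were named after their values were seen. The members and the lists were chosen with earlier results of these data known. Alternatives were the scanner software's ratio, Cy5 alone, the series table, a filter on dim probes, robust moderation, the array row as a block, a replicate block, and leaving out arrays.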

Additional observations from a re-analysis of the deposited data

Results flagged for a closer look

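Within groups of 4 arrays, an array was set apart where its gap to the nearest of the others exceeded Dixon's 95% critical share of the group's range. Of 32 checks, 11 met this mark. Chance sets apart about 1 group in 20, and the genes had been picked for high single arrays, so the number is a description. Values are log2 Cy5 minus the slide median.

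CC 1 was set apart within CC for Ucp1 (2.80), Adipoq (1.79) and Fabp4 (1.54). C 10 was set apart within C for Ucp1 (2.61), Adipoq (1.41), Fabp4 (0.94) and Cox8b (1.71). The other 4 were small deviations. Adipoq on MM 1 was at 0.35, not well above background. Fabp4 on MM 2 was at -0.32, and Fabp3 was at 0.35 on MM 3 and at 0.05 on C 11. Cox8b and Fabp3 on CC 1 and CC 2 were not set apart by this measure, because both arrays belong to the group of 4 and lie close to each other.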

How the results depend on the processing

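The 19 member differences described here were recomputed 324 times under the alternatives. Of these, 269 kept their direction and their side of the threshold, 35 changed sign, 12 lost a call and 8 gained one. Of 413 recalculations of the other 21 member differences, not described here, 74 changed sign and 2 gained a call. Adjusted p-values are from limma.

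Fabp3 in MM against CC ranged from -1.61 to -0.88 when 1 array was left out, and its call was lost without any of CC 1, CC 2, MM 1, MM 2, MM 3 and MM 4. It was also lost with the scanner software's ratio (-1.66), Cy5 alone (-1.11) and robust moderation (adjusted p = 0.0961). It held with the series table, the dim filter and the array row as a block. The replicate block on the MM and CC arrays gave -1.25 with an adjusted p = 0.122. The 8 gained calls were Cox8b in MM against CC with the row as a block (-2.85, adjusted p = 0.0491), without CC 3 or CC 4 (both -3.84, 0.0305 and 0.0289) and in row 1 alone (-5.58, 0.00082), Fabp3 (2.37, 1.15e-06) and Cox8b (5.07, 0.00256) in CC against C in row 1 alone, and in row 2 alone Cox8b in M against C (0.61, 0.0342) and Cfd in MM against CC (-0.60, 0.044). Nothing is read from calls in row 1, which holds the arrays the genes were picked for. Cox8b in MM against CC ranged up to -1.85 when other arrays were left out.

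Cox8b in M against C was 0, and 0.56 without the 3 arrays (adjusted p = 0.0656). It turned to -0.01 with the scanner software's ratio, -0.03 with the series table and -0.61 in row 1 alone, and ranged from -0.21 to 0.56 when 1 array was left out, turned by C 9, C 11, C 12 or M 8. Fabp3 in M against C turned to 0.20 with the scanner software's ratio and 0.09 with Cy5 alone. Leaving out 1 array gave -0.49 to 0.03 (Cidea) and -0.52 to 0.05 (Adipoq) in M against C, turned by C 10, and -0.77 to 0.05 and -0.50 to 0.20 in MM against CC, turned by CC 1. Without CC 1, CC 2 and C 10, Cidea was 0.21 and 0.03 and Adipoq 0.29 and 0.05 (MM against CC, M against C), and Cox8b 0.13 in MM against CC. In MM against CC, Cfd was 0.03 in row 1 alone, and Adipoq was 0.21 and Fabp4 0.15 in row 2 alone. Ucp1 in CC against C was -0.77 to 0.85 when 1 array was left out, turned by CC 1, C 9, C 11 or C 12. The dim Lep in M against C, at 0, was 0.05 with Cy5 alone, 0.01 with the series table, 0.10 in row 1 alone and -0.06 to 0.06 when 1 array was left out. In MM against CC, Lep was -0.16 with the scanner software's ratio and -0.02 without the 3 arrays. The fits by row and without 3 arrays were chosen after seeing the data. The cause of these changes was not tested.

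Called probes in M against C and MM against CC numbered 4057 and 4017 with the scanner software's ratio, 469 and 433 with Cy5 alone, 767 and 693 in row 1 alone and 595 and 1059 in row 2 alone, against 2568 and 2476. Without the 3 arrays MM against CC had 1232. Row 1 alone gave 94 in CC against C, 1 in MM against M and 71 in the interaction, and the scanner software's ratio gave 1 in each of the last pair. Leaving out 1 array gave 1892 to 2224 and 1846 to 2232. The numbers shared by MM and CC arrays did not pair them (same-number correlations of 0.340, 0.0580, 0.184 and 0.0935), and the replicate block gave 1943 calls in place of 1677 on these 8 arrays.

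Of 48 recalculations of the 12 high member levels, 37 shifted in size, 10 held and 1 changed sign. Other scalings gave 1.14 to 6.75. Centred on the median of the 4 arrays of their row, which include CC 1, CC 2 and C 10, they were -1.89 (Cox8b on C 10) to 2.07.

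Of the 8 genes, 5 passed the dim filter. Mixture and slide cannot be told apart, and 12242 and 12496 reference-channel probes differed between slides.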

Other observations

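At least 6 of 16 exocrine pancreas genes were high on each of 4 arrays, in 3 groups. Beside CC 1 and CC 2, Amy2a3, an amylase gene, was at 3.15 log2 units on MM 1 and 2.13 on M 6, and Cel, the bile salt-activated lipase gene, at 2.68 and 1.55. No adipose or brown fat gene was high on MM 1 or M 6.

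Tpt1 was at 2.98 on C 10 and 3.01 on CC 2, against -0.20 on CC 1. Cd74, the invariant chain of antigen presentation, was at 1.56 on M 8, and Kap was high on C 11.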
